A study of Homo sapiens with 4 samples.

Results

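Hypoxia pathway genes were examined in the m6A peak list of MDA-MB-231 cells, an established triple negative breast cancer cell line. The 10 genes were 7 regulators of the response (HIF1A, EPAS1, ARNT, EGLN1, EGLN2, EGLN3 and VHL) and 3 of its targets (VEGFA, ADM and BNIP3). They were chosen by name, with earlier results of these data known. Their peaks were found by matching the Ensembl gene ID of each peak to a symbol. Of these 10 genes, 8 had a peak, and they held 19 of the 20261 peaks that were listed for 10140 gene IDs. In m6A-seq, fragments of poly(A) RNA that carry N6-methyladenosine are pulled down with an antibody (immunoprecipitation, IP), and a peak is a region where IP reads exceed those of input RNA. The series held 2 input and 2 IP libraries from cells labelled shNS, with no further treatment or time point in the labels. The treatment label of the IP libraries names YTHDC1, whereas their protocol describes an anti-m6A antibody, and they were taken here as m6A IP. All 4 libraries had been combined into 1 list with 1 score per peak, so neither replicate values nor read depth are given, and no spread between replicates could be computed.

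Cells sense oxygen through hydroxylation of the HIF alpha subunits. When oxygen is present, the prolyl hydroxylases encoded by the EGLN genes (also called PHD enzymes) mark HIF1A and EPAS1 (HIF-2α) proteins, and the VHL ubiquitin ligase binds the marked subunits and sends them to the proteasome. When oxygen falls, the alpha subunits pair with ARNT (HIF-1β) and switch on genes for angiogenesis, mitophagy and glycolysis. EGLN1 and EGLN3 are themselves known HIF targets, so the regulator and target classes are not fully separate.

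HIF binds a short DNA core, ACGTG or GCGTG, and both were searched on both strands of RefSeq promoter windows (GRCh38.p14), which run from 250 bases before to 50 bases after the start of a gene. A window was given for 8 of the 10 genes, all but VHL and VEGFA. ACGTG was found in EGLN1, EGLN2 and BNIP3, 3 of these 8 genes, and in 28.5% of the 15843 protein-coding genes with a window. With GCGTG allowed as well, 6 of 8 genes had a match, against 61.9% of all, and ARNT and EGLN3 had none. The stretch around a match is shown for EGLN1 and EGLN2, the regulators with ACGTG, and for both targets with a window. The regulators HIF1A and EPAS1 had GCGTG, 204 and 117 bases before the start, and are not shown. The match named on each line is in capitals, written along the strand of the gene. In EGLN2 and BNIP3, overlapping matches on opposite strands form the 6-base CACGTG, which is counted as 2 matches. The BNIP3 window held 6 matches to either core, 2 of them from its CACGTG. The others were CACGC, which is GCGTG on the opposite strand, and 2 of them lie in lower case in the stretch shown, starting 143 and 125 bases before the start of the gene.
EGLN1, chr1:231422284-231422312, minus strand, core 13 bases before the start: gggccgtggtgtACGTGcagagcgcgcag
EGLN2, chr19:40799130-40799159, plus strand, core 49 bases before the start: gcggggcgcggtCACGTGcccaccgggcga
BNIP3, chr10:131982040-131982069, minus strand, core 134 bases before the start: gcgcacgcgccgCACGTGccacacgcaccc
ADM, chr11:10304960-10304988, plus strand, core 101 bases before the start: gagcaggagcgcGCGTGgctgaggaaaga
A match describes these letters in these windows and is not evidence of HIF binding. None of the 19 peaks lay in a promoter window given here. Peaks of VHL and VEGFA could not be placed in this way, because these genes had no window. The first VHL peak began 7 bases after the 5′ end of its span. The first EGLN1 peak began 120 bases after the 5′ end of the gene.

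Among all 20043 RefSeq protein-coding genes of the nuclear genome, 40.8% had at least 1 listed peak. The corresponding counts were 5 of 7 regulators and 3 of 3 targets. The list was uneven between strands, with 72.3% of all peaks on minus-strand genes. Of protein-coding genes whose strand was known without the list, 29.3% of those on the plus strand and 55.6% of those on the minus strand had a peak. A peak was listed for 5 of the 6 plus-strand members (HIF1A, EGLN2, VHL, VEGFA and ADM) and for 3 of the 4 minus-strand members (EGLN1, EGLN3 and BNIP3). The strand of VHL and VEGFA was known only from the list, so they fall outside the rule of these background shares. By that rule the plus-strand members with a peak were HIF1A, EGLN2 and ADM, and EPAS1 had none. Because the list is uneven, each member is read below against genes of its own strand. The score is the deposited value of the authors' peak caller, taken here as a p-value for enrichment by IP, although an FDR is possible. Peaks with smaller scores are called stronger, and the median over all peaks was 5.2e-08. The list holds no read counts or expression values, so a stronger peak cannot be read as more methylation. A peak no weaker than that median was found for 26.6% of protein-coding genes (12.2% on the plus and 43.8% on the minus strand). It was found for 3 of 7 regulators (EGLN1, EGLN3 and VHL) and 2 of 3 targets (VEGFA and BNIP3). The median score was 1.4e-05 over plus-strand and 3.2e-10 over minus-strand peaks. BNIP3, on the minus strand with a smallest score of 2.8e-08, passed the median of the whole list but not that of its strand.

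The HIF subunits carried 1 peak in all. HIF1A, the oxygen-labile alpha subunit, had 1 peak of 150 bases (chr14:61740980-61741129, ENSG00000100644.17, plus strand) with a score of 1.8e-05. Its midpoint lay at 86.3% of the gene span counted from the 5′ end, and the peak ended 7129 bases before the 3′ end. A smallest score at or under that of HIF1A was reached by 61.1% of the listed plus-strand genes, so HIF1A was not among the stronger genes of its strand. EPAS1 (plus strand, span of 89291 bases) and ARNT (minus strand, span of 66887 bases) had no peak, and no other gene had a peak inside either span. The list holds no expression values, so absence of methylation and low expression cannot be told apart for these genes.

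The prolyl hydroxylases had 8 peaks, and each of the 3 genes had at least 2. Of all listed genes, 50.6% had 2 or more peaks (36.6% of those on the plus strand, where EGLN2 lies). EGLN1 and EGLN3 had 3 peaks each, and 31.2% of listed minus-strand genes had as many or more. EGLN1 (PHD2, the main oxygen sensor of the family) had the strongest peak of all members. That peak was 658 bases long (chr1:231421510-231422167, ENSG00000135766.9, minus strand) with a score of 1e-106. The second EGLN1 peak followed after a gap of 119 bases. It ran over blocks of 26 and 393 bases (chr1:231420318-231421390) and had a score of 1e-63. The third lay at the other end of the gene and ended 2356 bases before the 3′ end (chr1:231366112-231366381, 270 bases, 3.2e-27). It shared 265 bases with a peak of ENSG00000287856 on the same strand, which had a smaller score (5e-28), so that the list alone does not tell these genes apart there. All 3 EGLN1 scores were under the list median, and a smallest score at or under that of EGLN1 was reached by 20.5% of the listed minus-strand genes.

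EGLN3 (PHD3) also had 2 peaks near the 5′ end and 1 near the 3′ end. Its first peak began 231 bases after the 5′ end (chr14:33950574-33950843, ENSG00000129521.14, minus strand, 270 bases, 1e-23). The second was the longest peak of any member, with 899 bases (chr14:33949347-33950245, 6.3e-12). The third ended 898 bases before the 3′ end (chr14:33925125-33925723, 599 bases) and was the strongest of the gene, with a score of 5e-28. The peak nearest the 5′ end was thus the strongest in EGLN1 and the one nearest the 3′ end in EGLN3. Read against its own strand EGLN3 was near the middle, since 45.1% of minus-strand genes had a smallest score at or under it.

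EGLN2 (PHD1) differed from both, with 2 short weak peaks and none in the final 10% of its span. They lay 1274 and 1812 bases after the 5′ end, at chr19:40800465-40800615 (151 bases, 9.3e-05) and chr19:40801003-40801152 (150 bases, 4.5e-05), under ENSG00000269858.6. Of the plus-strand genes in the list, 66.2% had a smallest score at or under that of EGLN2. Both EGLN2 peaks were also listed for RAB4B-EGLN2, a read-through gene on the same strand, with scores of 6.9e-05 and 4.6e-05 and 151 and 149 shared bases. Reads of the 2 genes cannot be told apart there.

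VHL, the substrate-recognition subunit of the ubiquitin ligase, had 2 peaks, both at the 5′ end. The first began 7 bases after the start of the RefSeq span (chr3:10141785-10142083, ENSG00000134086.7, plus strand, 299 bases) and had a score of 1e-45. The second began 992 bases after it (chr3:10142770-10142979, 210 bases) with a score of 2.2e-05, above the list median. VHL and the target VEGFA stood higher on their strand than the other 6 members with a peak. A smallest score at or under that of VHL was found for 9.87% of plus-strand genes, although EGLN1, which ranked lower on its own strand, had the smaller score.

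**Figure D1:**
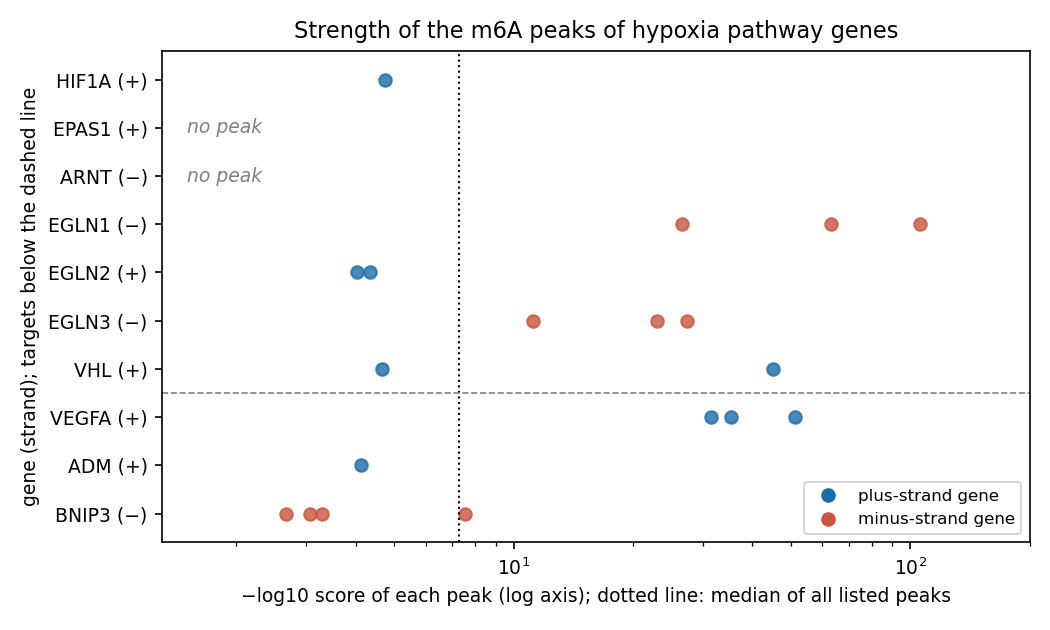
Each point is 1 m6A peak, placed by the −log10 of its score (log axis) in the row of its gene, with plus-strand genes in blue, minus-strand genes in red and targets under the dashed line. EGLN1 reaches a score of 1e-106, the peaks of EGLN1, EGLN3 and VEGFA all lie to the right of the list median (dotted line, score 5.2e-08), and EPAS1 and ARNT have no peak.

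Among the targets, VEGFA, the secreted growth factor that drives blood vessel formation, had 3 peaks with 1591 bases in all. The first was in blocks of 830 and 10 bases near the 5′ end (chr6:43770483-43772001, ENSG00000112715.23, plus strand) and had a score of 7.9e-52. The other two lay 238 bases apart near the 3′ end, at chr6:43784511-43784781 (271 bases, 3.2e-32) and chr6:43785020-43785499 (480 bases, 4e-36). All 3 scores were under the list median, and 8.62% of plus-strand genes had a smallest score at or under that of VEGFA. The first VEGFA peak shared 134 bases with a 135-base peak of ENSG00000272114 on the opposite strand (2.5e-27), and it was the only member peak with a partner on the other strand. The peaks at the 3′ end had no such partner. Without peaks that overlap one on the opposite strand, the share was 8.20% for VEGFA and 6.60% for VHL, so the order of these genes on their strand turned.

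The other two targets had weak peaks. ADM, which encodes the vasodilator peptide adrenomedullin, had 1 peak of 180 bases, which ended 328 bases before the 3′ end of its short span (chr11:10306890-10307069, ENSG00000148926.10, plus strand, 7.8e-05). BNIP3, a mitochondrial outer membrane protein that promotes mitophagy, had the most peaks of any member, 4, but they were short and together covered 513 bases. The strongest (chr10:131966485-131966724, ENSG00000176171.11, minus strand, 240 bases, 2.8e-08) was the only one under the list median. It was weaker than the median minus-strand peak (3.2e-10). The others had scores of 0.00052, 0.00085 and 0.0022 and lengths of 121, 91 and 61 bases. On the minus strand 15.2% of listed genes had 4 or more peaks, while 70.0% had a smallest score at or under that of BNIP3. The share for ADM on the plus strand was 69.8%. The number of peaks and their strength therefore ordered the targets differently.

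**Figure D2:**
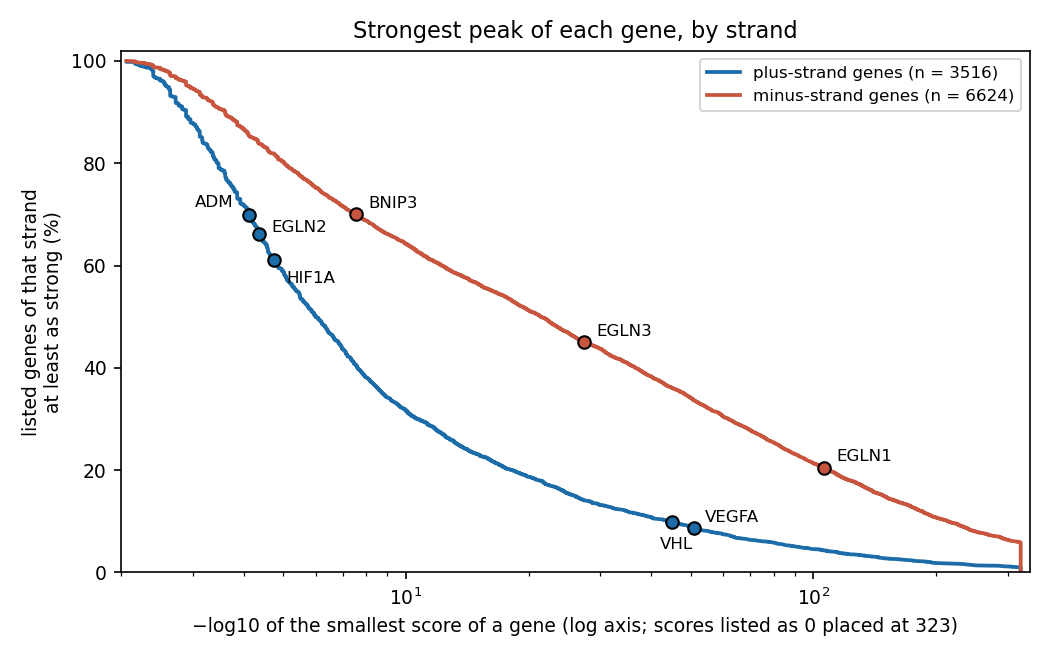
The curves give the share of listed genes of a strand (y axis, %) whose smallest score is at least as strong as the −log10 value on the x axis (log axis, scores listed as 0 at 323), and the points are the 8 members with a peak on the curve of their strand. VEGFA and VHL lie at 8.62% and 9.87% of the plus-strand curve, and EGLN1 at 20.5% of the minus-strand curve despite its larger −log10 value.

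Peak position was compared along the RefSeq span of each gene, introns included. Of the 11 regulator peaks, 6 had their midpoint in the first 10% of the span and 2 in the final 10%. The median was 9.22% of the way from the 5′ end. The first 10% held 12.4% and the final 10% held 37.4% of all 15944 protein-coding peaks inside their span, and the median position was 80.4%. These shares were close on both strands (13.2% and 36.4% on plus, 12.1% and 37.8% on minus). The 6 regulator peaks near the 5′ end came from 3 genes, 2 each from EGLN1, EGLN3 and VHL. They are thus not 6 independent observations. The EGLN2 peaks lay at 14.6% and 20.4% of the span, and HIF1A was the regulator whose only peak was toward the 3′ end.

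The 5 target peaks inside their span had a median position of 85.9%, near the 80.4% of all protein-coding peaks. Of all 8 target peaks, 4 of which belong to BNIP3, 1 (VEGFA) was in the first 10%, 1 (VEGFA) was in the final 10%, and 3 peaks at 88.7% (VEGFA), 82.0% (ADM) and 85.9% (BNIP3) were before it. The other 3, all of BNIP3, lay past the 3′ end of the RefSeq span and reached 571, 900 and 1199 bases beyond it. The annotation used by the authors assigns these peaks to BNIP3, and RefSeq ends the gene earlier. Of 17147 peaks on protein-coding genes, 7.02% did not lie wholly inside the RefSeq span. When the BNIP3 span was widened by 1199 bases to reach them, the number of member peaks in the final 10% rose from 3 to 6. A peak in both the first and the final 10% of the span was found in EGLN1, EGLN3 and VEGFA. It was not found in EGLN2 and VHL, the other members with 2 or more peaks inside the span. In EGLN1 the peak in the final 10% is the one shared with ENSG00000287856. Placed by its 3′-most base, the first VEGFA peak lay at 11.0% of the span and the pairing in VEGFA was lost. Among all protein-coding genes with 2 or more peaks inside the span, a peak in both parts was found for 17.8% on the minus strand and 9.19% on the plus strand. This pairing was noticed in the peaks before it was counted, and is given without a test.

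**Figure D3:**
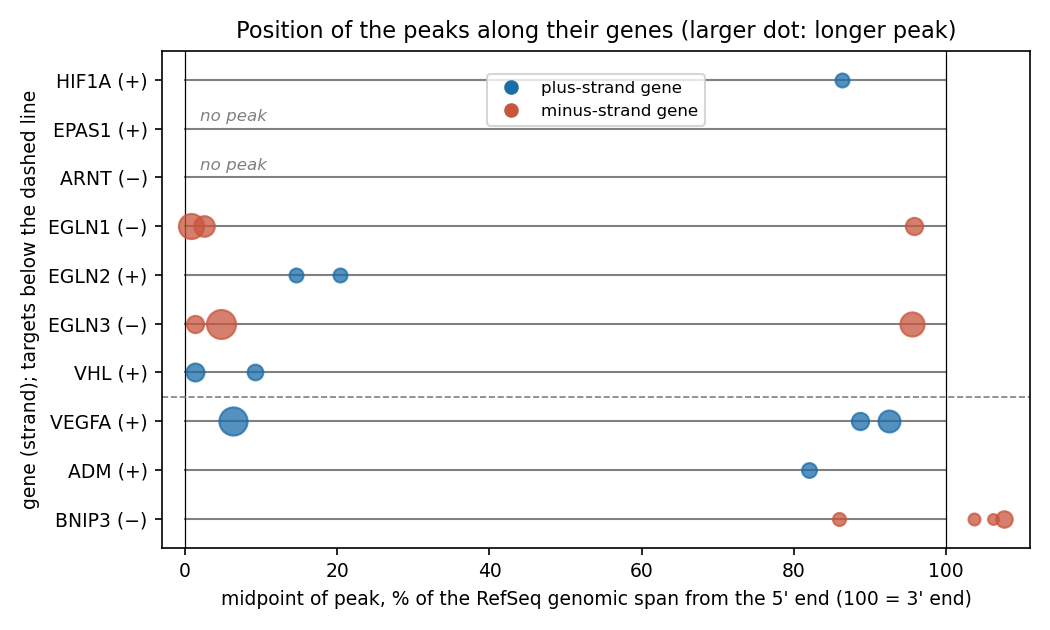
Each dot is the midpoint of 1 peak along the RefSeq genomic span of its gene (x axis, % from the 5′ end, introns included), with larger dots for longer peaks, blue for plus-strand and red for minus-strand genes, and targets under the dashed line. EGLN1, EGLN3 and VHL have 2 dots each in the first 10%, and 3 of the 4 BNIP3 dots lie past the 3′ end.

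To place the members in their pathway, 79 hypoxia genes in 7 roles were counted, the 10 members included. A peak was listed for 46 of them (58.2%, against 40.8% of all protein-coding genes), and 38 had one no weaker than the list median (26.6% of all). Regulators and cofactors had a peak in 19 of 29 genes (65.5%) and targets in 27 of 50 (54.0%). Split by strand, with strand taken from the promoter table, the order of the classes was not the same. The split leaves out 10 genes that this table does not hold, VHL and VEGFA among them, and 7 of these 10 had a peak. On the plus strand 5 of 11 regulators and 9 of 28 targets had a peak, and on the minus strand 11 of 14 regulators and 14 of 16 targets. Among genes with a peak, the median share of own-strand genes that were at least as strong was 26.8% for regulators and 27.8% for targets. The first 10% of the span held 2 of 28 peaks (7.14%) of regulators that are not members and 7 of 43 (16.3%) of such targets. The excess of 5′ peaks in the regulators described above was therefore not seen in the other regulators of this list.

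The counts by role are read against the same 40.8% of all protein-coding genes, or 29.3% on the plus and 55.6% on the minus strand. Of the HIF subunits and partners, 2 of 6 genes (33.3%) had a peak. On the plus strand by the promoter table, 1 of 4 such genes (HIF1A) had a peak, near the plus-strand share. The other gene with a peak was ARNT2, a paralogue of ARNT that the promoter table does not hold, with 1 peak (0.00044). The oxygen sensors had a peak in 4 of 5 genes, 2 of 3 on the plus and 2 of 2 on the minus strand. Of these, HIF1AN (FIH), the asparaginyl hydroxylase that blocks HIF coactivator binding, had 1 peak with a score of 4.3e-08. In the VHL ligase group 3 of 6 genes had a peak. NEDD8, the ubiquitin-like activator of cullins, had 2 peaks with a smallest score of 1e-48, shared with the read-through gene NEDD8-MDP1, and the scaffold CUL2 had 1 (5e-19). HIF stability factors and cofactors had a peak in 10 of 12 genes, and all 10 had a peak no weaker than the list median. Of all listed genes, 42.1% on the plus and 70.7% on the minus strand had a peak that strong. CITED2, which competes with HIF for p300 and CBP, and the chaperone gene HSP90AA1 had 2 peaks each and a smallest score listed as 0. A score of 0 is too small to have been stored, and such genes cannot be ordered among themselves. Of 12 genes in this role, 8 were on the minus strand by the promoter table and 7 of these 8 had a peak.

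The angiogenic and secreted targets had a peak in 7 of 12 genes, 1 of 4 on the plus and 5 of 6 on the minus strand. STC2, a secreted glycoprotein hormone, had 6 peaks and a smallest score listed as 0. The angiogenic ligand PGF had 3 peaks (1e-183) and the collagen lysyl hydroxylase PLOD2 had 1 (1e-103). Mitophagy, stress and growth targets had a peak in 10 of 15 genes, 4 of 8 on the plus and 4 of 4 on the minus strand. DDIT4, an inhibitor of mTORC1 signalling, had 1 peak of 507 bases with a score of 1e-130 that overlapped a peak of ENSG00000269926 on the opposite strand. IGFBP3 had 1 peak (1e-109), and the transcriptional repressor BHLHE40 had 3 (2.5e-86). BNIP3L, the paralogue of BNIP3, had none.

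Glycolytic and pH genes had a peak in 10 of 23 genes (43.5%). On the plus strand 4 of 16 genes had a peak, and on the minus strand 5 of 6, against 29.3% and 55.6% of all protein-coding genes. The glucose transporter SLC2A1 had 2 peaks with a smallest score listed as 0, ENO1 (enolase) had 3 (1e-253) and PKM (pyruvate kinase) had 1 (1e-180), and all 3 are on the minus strand. The 12 plus-strand genes without a peak were HK1, GPI, PFKL, PFKP, ALDOA, TPI1, GAPDH, PGK1, PGAM1, LDHA, PDK1 and CA9, and the minus-strand gene without one was ALDOC. The part that the strand imbalance of the list plays in these counts was not tested.

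**Figure D4:**
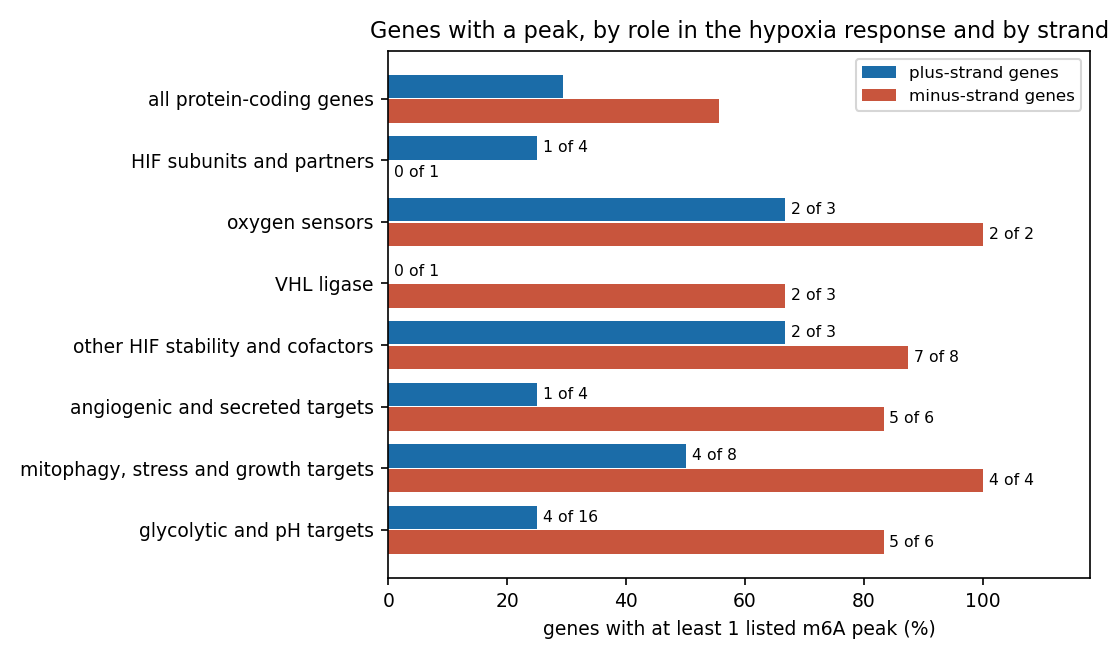
Bars give the share of genes with at least 1 listed m6A peak (x axis, %) for all protein-coding genes and for each role, in blue for plus-strand and red for minus-strand genes by the promoter table, with the count beside each bar (10 genes outside that table, such as VHL and VEGFA, are not drawn). Glycolytic and pH targets have a peak in 4 of 16 plus-strand and 5 of 6 minus-strand genes, and all protein-coding genes in 29.3% and 55.6%.

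In the promoter windows of the wider list, ACGTG was present in 28 of 44 targets with a window (63.6%), in 7 of 25 regulators and cofactors (28.0%) and in 28.5% of all protein-coding genes with a window. With GCGTG allowed as well, the shares were 95.5%, 68.0% and 61.9%. The targets were listed because they are known to respond to HIF, so this difference is a description of the list.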

How the data were processed

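MDA-MB-231 poly(A) RNA was profiled by m6A-seq in 2 input and 2 IP libraries made with a stranded kit. The authors mapped reads with STAR to a GENCODE v33 transcriptome (hg38 per the labels), called peaks with exomePeak at default settings and filtered them by fold enrichment and FDR. The deposited score was read as the p-value of each peak. The header does not name it, and an FDR is possible. The list has no counts, so depth and precision are unknown.

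Peaks were matched to symbols by Ensembl ID without version (10103 of 10140 IDs). Positions used RefSeq spans on GRCh38.p14, and strand for the background came from the RefSeq promoter table, which lacked 4200 protein-coding genes. Coordinates are written from 1. Exons, UTRs and the m6A motif inside peaks were not analysed here. Overlap required at least 1 shared base of peak blocks. Members and gene lists were chosen with earlier results of these data known, and no test was run. The named genes were all members and, per role, up to 3 other genes with the smallest score, except a gene that is not reported here. Genes listed for lacking a peak were chosen after their values were seen. Likeness between genes was not computed, since the list has no samples to compare over. Functions were tested on simulated data. Python 3.11.15 and pandas 2.3.3 were used.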

Additional observations from a re-analysis of the deposited data

How the results depend on the processing

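With peaks at or under the list median alone, 5 of the 8 members with a peak remained and 11 of the 19 peaks. Widening the span of BNIP3, chosen after seeing the data, gave 6 member peaks in the final 10% instead of 3, and allowing GCGTG beside ACGTG gave 6 members with a promoter match instead of 3. These changes follow from how the alternatives are built. The first part of the list alone and merging of same-strand overlaps changed neither the number of members nor of peaks. The 4 members among the strongest 50% of listed genes numbered 4 as well among protein-coding genes, without opposite-strand overlaps, in the first part of the list and within strand, with or without those overlaps, where the settings within strand were added after seeing the data. The number of member peaks in the first 10% of the span fell from 7 to 5 when peaks were placed by their 3′-most base, which moved VEGFA (11.0%) and the second VHL peak (10.1%) past it, and was also 5 for peaks in 1 block. The number in the final 10% was 3 in both cases. Without opposite-strand overlaps, VEGFA moved from 24.9% to 29.8% of all listed genes at least as strong and VHL from 27.0% to 26.1%, so that VHL ranked above VEGFA. No paired analysis was possible because peaks were called on the 4 libraries jointly, so replicates could be neither blocked nor left out. With depth unknown, EPAS1 and ARNT cannot be called unmethylated.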

Other observations

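Inside the span of HIF1A, the minus-strand gene HIF1A-AS3 had 1 peak of 180 bases (chr14:61708281-61708460, 1.9e-06), at 24.4% of the HIF1A span. Its score was smaller than the 1.8e-05 of HIF1A itself, and the 2 peaks did not overlap. Of minus-strand genes in the list, 76.7% had a smallest score at or under that of HIF1A-AS3.

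Genes that mark the cell line were looked up as peaks, since the list holds no expression. VIM, a mesenchymal intermediate filament gene, had 1 peak (5e-27), which overlapped a peak of VIM-AS1 on the opposite strand, and CD44 had none. The receptor genes ESR1 and PGR, low or absent in triple negative cells, had no peak, whereas ERBB2 had 3 (smallest score 2.5e-15), the strongest of which overlapped a peak of MIEN1 on the opposite strand.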
